A study of Mus musculus with 15 samples.

Results

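Glycolysis and the pentose phosphate pathway were followed in mouse bone marrow through 32 genes: the glucose and lactate transporters, the enzymes from hexokinase to lactate dehydrogenase with their main regulators, and the enzymes of the pentose phosphate branch. The members were taken by gene name from a normalized count table of 38315 genes. All 32 names were present, and they gave 33 rows because Aldoa has a second, low row. The series compared bulk RNA of acute myeloid leukaemia (AML) with normal marrow in 15 libraries. The AML marrow (n = 7) came from mice of the genotype NUP98NSD1/FLT3ITD, which carry a fusion of the nuclear pore gene NUP98 with the histone methyltransferase gene NSD1 together with an internal tandem duplication in the receptor kinase FLT3. One control group was wild-type whole marrow (n = 4), and the other was wild-type lineage-negative marrow (n = 4), a fraction depleted of mature blood cells and so enriched for stem and progenitor cells. All of the mice had been kept in a mouse facility from birth. Their age, the promoters that drive the transgenes and any sort of the leukaemic cells are not given in the sources used here, and the AML libraries are labelled as marrow tissue.

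Glycolysis splits glucose into pyruvate in the cytosol and yields ATP, and lactate dehydrogenase turns the pyruvate into lactate, which leaves the cell through monocarboxylate transporters. Several steps have paralogous enzymes that differ in kinetics and in the tissues that use them, among them hexokinase, phosphofructokinase and aldolase. The pentose phosphate pathway branches off after hexokinase, makes NADPH and ribose 5-phosphate, and in neutrophils feeds the oxidase of the respiratory burst. In marrow, stem and progenitor cells are known for a glycolytic metabolism, and mature red cells, which have no mitochondria, depend on glycolysis.

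Values are counts that the authors had divided by a size factor for each library, called normalized counts here. By the estimated weight of 1 read, the libraries held 11388200 to 35100900 reads, the whole marrow libraries being the shallowest. The deposited scaling placed the groups at different levels: over the 18941 genes tested, the median log2 difference of AML from whole marrow was 0.67, that of lineage-negative from whole marrow was 0.59 and that of AML from lineage-negative marrow was 0.02. After TMM scaling, which assumes that most genes do not differ, these medians were -0.01, -0.09 and 0.03. A member was therefore called only where limma gave an adjusted p under 0.05 with a log2 difference of at least 1, and each call is followed by whether TMM scaling kept it. The library of whole marrow replicate 1 had the smallest total and was the lowest of its group in 31 of the 33 rows, so values without it are given where they change a call. Summed late neutrophil and erythroid markers followed the labels of the normal groups, and the sums of some other mature lists did not. The summed normalized count of 12 late neutrophil markers was 459129 to 1216130 in whole marrow, 2196 to 19449.7 in lineage-negative marrow and 421256 to 1491860 in AML marrow. The sum of 12 erythroid markers was 816471 to 2011440 in whole marrow against 35332 to 73132 in lineage-negative and 462 to 32658 in AML marrow, and 7 stem and progenitor markers summed to 16148 to 20581 in lineage-negative marrow, 1393 to 2449 in whole marrow and 2488 to 8603 in AML marrow. The T and NK cell sum was 1325 to 1873 in lineage-negative marrow, above the 555 to 1088 of whole marrow. By gene, however, 5 of these 6 markers were called lower in lineage-negative marrow with both scalings, and 1 was called higher as deposited only. The eosinophil and mast cell sum was 19102 to 44039.9 in lineage-negative and 19288 to 43577 in whole marrow, and ranged from 505 to 1941 in AML. The sum of 9 monocyte and macrophage markers was 72309.6 to 134190 in AML, above all 8 normal libraries (17776 to 38430.1 in whole and 18920.4 to 29658 in lineage-negative marrow). By gene, 7 of the 9 were called higher and 1 lower than in whole marrow as deposited, and 3 and 1 with both scalings. All 9 were called higher than in lineage-negative marrow. In bulk marrow, fewer cells of a type and less RNA per cell cannot be told apart, and the part of these cell types in the differences below was not tested. Group levels are given as mean ± SD over the 7 AML libraries or the 4 libraries of a normal group. The labels number the samples without naming the mice, so p-values measure the spread between these samples.

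Against lineage-negative marrow, AML marrow had more RNA for glucose uptake, for lactate export through Slc16a3 and for the NADPH-making dehydrogenases G6pdx and Pgd. It had less for Hk1, Pfkm, Pdk1 and Slc16a1. Of the 33 rows, 8 rose (Aldoc, G6pdx, Pfkfb4, Pgd, Pkm, Slc16a3, Slc2a1 and Slc2a3), while 17.7% of all genes tested did, and 5 fell (Hk1, Pdk1, Pfkm, Rpia and Slc16a1), while 12.5% of all genes did. All 13 calls were also made with TMM scaling, under which 17.6% of all genes were higher and 12.5% lower (17.5% and 12.4% with both scalings). Every AML library was above every lineage-negative one in 11 rows (17% of all genes) and below in 5 (17.6%). The median of the 33 log2 differences was 0.50, and that of all genes was 0.02. The list as a whole was not tested against other genes.

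Against whole marrow, 10 members were called higher in AML (Aldoc, Eno1, Eno3, Hk2, Pfkl, Pfkp, Pgam1, Pgls, Slc2a1 and Tpi1), beside 27.3% of all genes, and Slc16a1 was called lower, beside 11.3% of all genes. With TMM scaling 2 of the 10 remained, Aldoc and Pfkp, beside 4.74% of all genes, and Slc16a1 remained lower, beside 16%. Without whole marrow replicate 1, the count of higher members was 3 (Aldoc, Hk2 and Pfkp) with the deposited scaling, and the share of all genes was not counted for that fit. The differences then not called were 0.83 for Eno1, 0.998 for Pfkl, 0.86 for Pgam1, 0.96 for Pgls, 0.63 for Slc2a1 and 0.83 for Tpi1. Eno3, at 1.19, was not called because of its limma adjusted p of 0.0637. Every AML library was above every whole marrow library in 12 rows (35.8% of all genes) and below in 1 (7.88%). The members' median difference of 0.76 lay near the 0.67 of all genes. The differences of Eno1, Eno3, Hk2, Pfkl, Pgam1, Pgls, Slc2a1 and Tpi1 were 0.35 to 0.64 with TMM scaling.

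The normal groups also differed from each other. In lineage-negative marrow 10 rows were called higher than in whole marrow, namely Hk1, Ldha, Pdk1, Pfkl, Pfkm, Pfkp, Pgls, Rpia, Tpi1 and the second row of Aldoa, beside 33.1% of all genes. Pfkfb4, G6pdx, Slc16a3 and Slc2a3 were called lower, beside 17.2% of all genes. Without whole marrow replicate 1, Pgls (0.97) and Rpia (0.88) were not called with the deposited scaling. With TMM scaling the higher calls came to 3 (Pdk1, Pfkl and Pfkm), beside 11.1% of all genes. The lower calls came to 6 with TMM scaling, Pgd and Taldo1 being added, beside 24.7% of all genes. The lineage-negative libraries were all above whole marrow in 13 rows (41.1% of all genes) and all below in 4 (16.6%). The 3 comparisons share libraries by pairs, so they are not independent of each other.

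**Figure D1:**
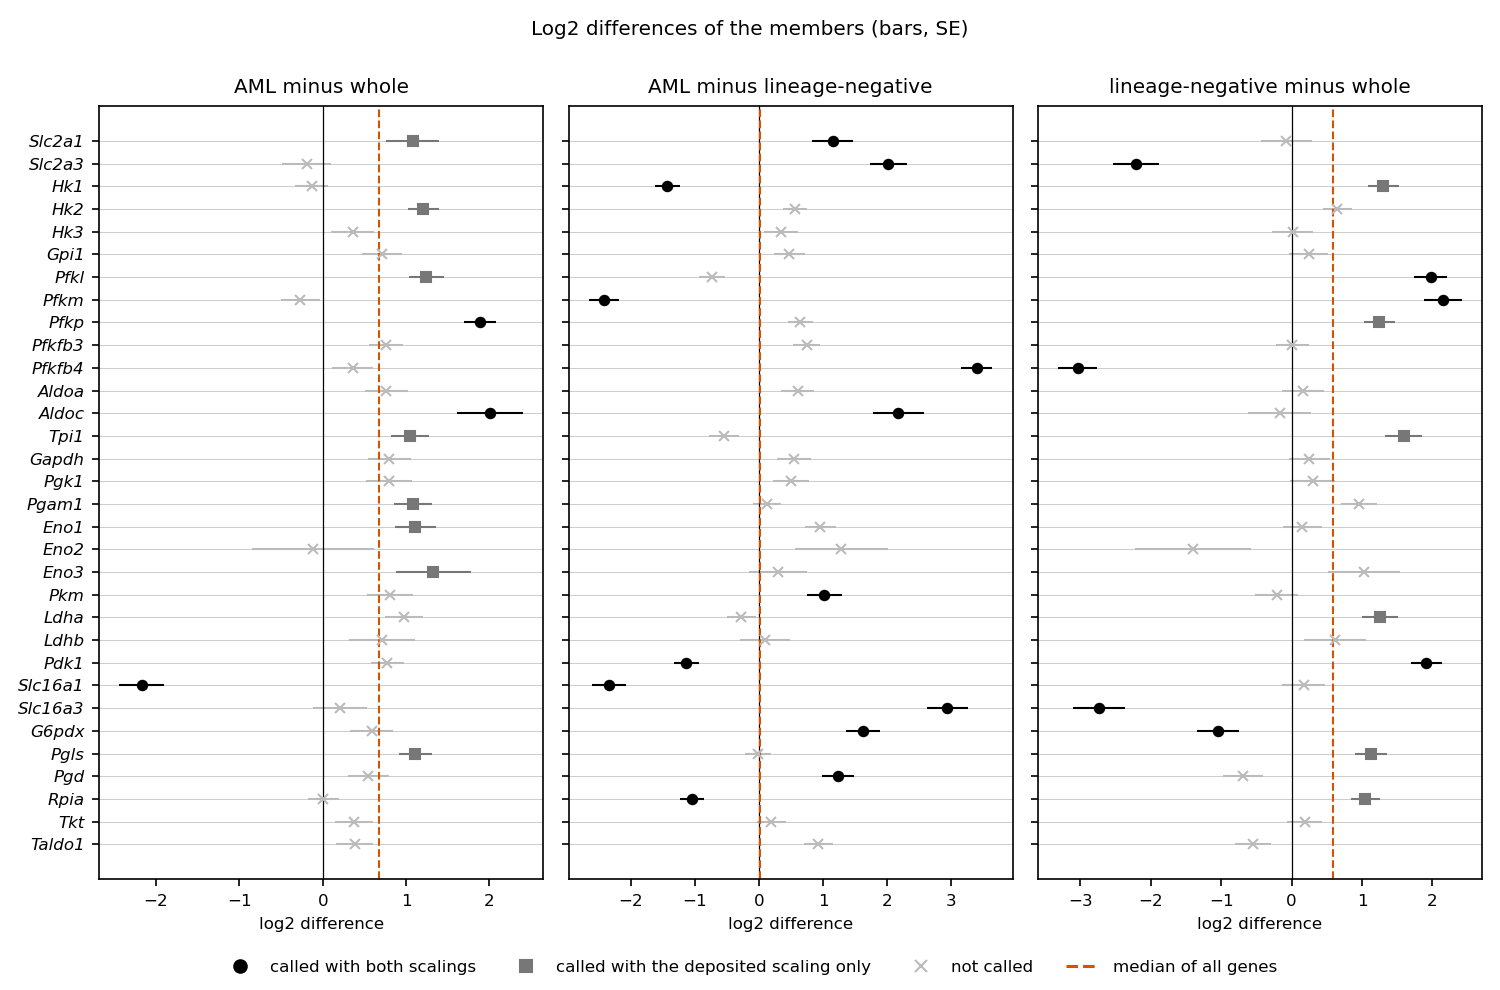
Log2 differences of the 32 members (points, with SE bars) on the log2(normalized count + 1) scale in each of the 3 comparisons, in pathway order; the second row of Aldoa is left out. The dashed line marks the median of all genes (0.67, 0.02 and 0.59 from left to right); Slc16a1 lies far to its left in both comparisons of AML, and round points are calls made with both scalings.

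Glucose enters through facilitative transporters, and both that were members were higher in AML than in lineage-negative marrow. Slc2a3 encodes GLUT3, a high-affinity transporter of neurons and white blood cells. Its normalized counts were 2811, 4127 and 9241 (lowest, median and highest) in AML marrow, against 1033, 1102, 1244 and 1004 in lineage-negative and 3116, 6569.8, 6043 and 5325 in whole marrow (replicates 1 to 4). Every AML library lay above the lineage-negative ones and inside or around the range of whole marrow. The log2 difference from lineage-negative marrow was 2.02 (SE 0.29, limma adjusted p = 1.22e-05), and that from whole marrow was -0.19 (SE 0.29, limma adjusted p = 0.58). With TMM scaling the second was -0.89 (limma adjusted p = 0.0124), under the size set for a call. Slc2a1 encodes GLUT1, a transporter of many dividing cells. It was at 328, 505 and 817 in AML, 307, 203, 199 and 217 in lineage-negative and 94.2, 319, 336 and 325 in whole marrow. All AML libraries were above the lineage-negative ones, while whole marrow replicate 1 stood far below its group and replicate 3 was above the lowest AML library only; the other two were below all AML libraries. The differences were 1.15 (SE 0.32, limma adjusted p = 0.0059) from lineage-negative marrow and 1.08 (SE 0.32, limma adjusted p = 0.00653) from whole marrow, and the second was 0.39 with TMM scaling (adjusted p = 0.266) and 0.63 without whole marrow replicate 1. Per kb of exon, Slc2a3 made up 80.6% ± 4.38 of the signal of this pair in AML, 90.9% ± 2.32 in whole marrow and 69.7% ± 5.69 in lineage-negative marrow. Scaling a library moves a log2 ratio within it only through the 1 added to each count. The log2 ratio of Slc2a3 to Slc2a1 dropped by 1.27 from whole marrow to AML (adjusted p = 0.00699, exact two-sided permutation over libraries). Against lineage-negative marrow the same ratio was higher in AML by 0.87 (adjusted p = 0.0195, exact permutation).

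Such ratios within a library were tested for 10 pairs of paralogs in 3 comparisons, 30 tests in all. With 7 against 4 libraries the smallest adjusted p reached was 0.00699, and it marks ratios whose groups did not overlap; with 4 against 4 libraries it was 0.0357. Each ratio below is a log2 ratio of normalized counts.

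**Figure D2:**
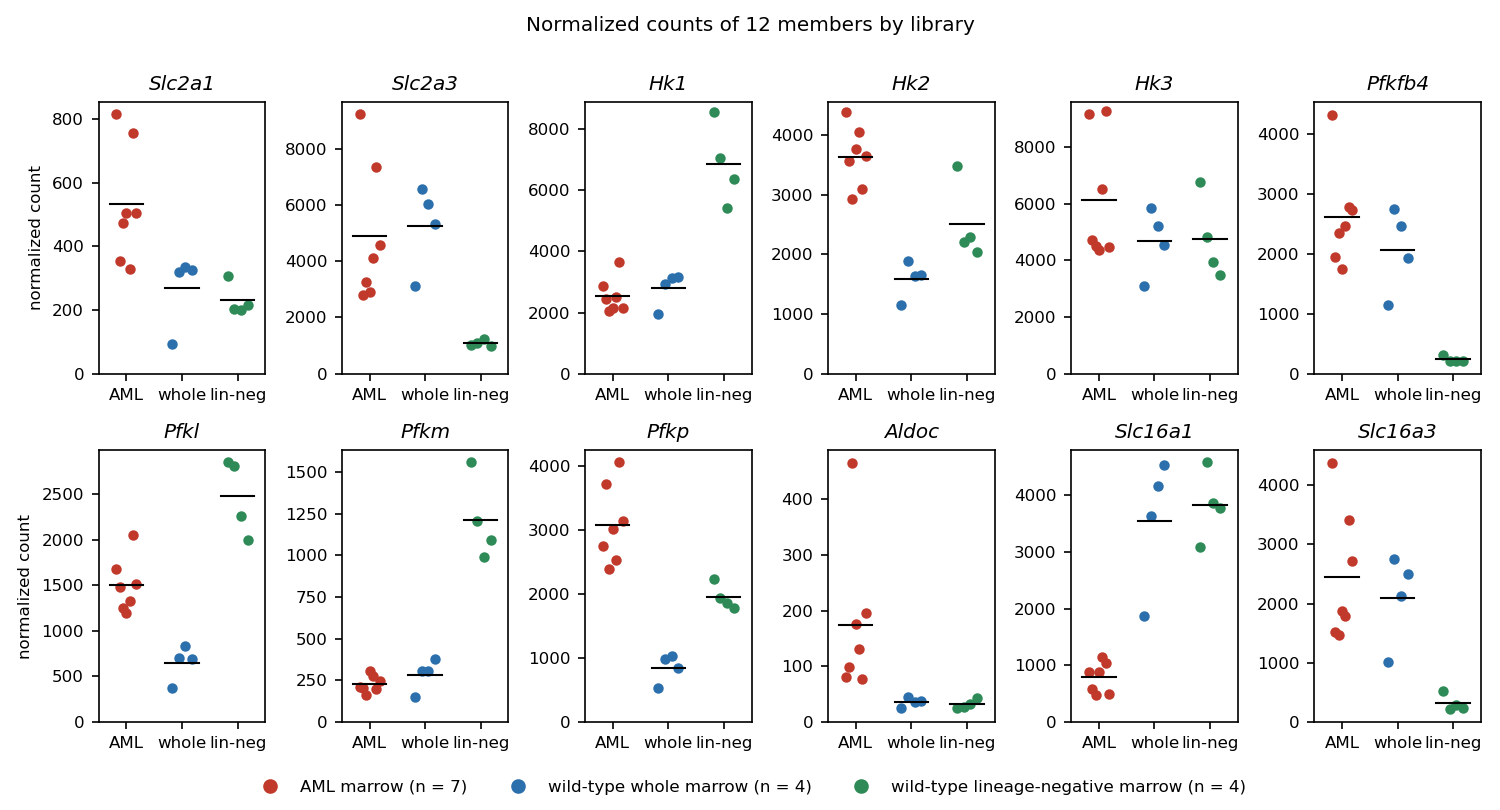
Normalized counts (linear axes from 0) of 12 members in each library; each point is 1 library and the bar is the group mean. Slc16a1 in AML stays from 478 to 1153, below all 8 normal libraries, and Pfkp stays from 2382 to 4065, above all 8; the offset of Pfkp from whole marrow is 1.19 on the log2 scale with TMM scaling against 1.89 as deposited.

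Hexokinase traps glucose in the cell as glucose 6-phosphate. In AML the balance had moved from Hk1, the widely expressed enzyme bound to mitochondria, towards Hk2, the inducible enzyme of muscle and of many tumours. Hk1 stood at 2054, 2442 and 3649 in AML, 1942, 2937, 3114 and 3153 in whole marrow and 8540.3, 7036, 5422 and 6351 in lineage-negative marrow. The lineage-negative libraries were all above the others, and AML overlapped whole marrow. The difference of AML from whole marrow was -0.13 as deposited (limma adjusted p = 0.569). With TMM scaling it was -0.83 (limma adjusted p = 4.71e-04), under the size set for a call. Relative to lineage-negative marrow Hk1 fell by 1.43 (SE 0.20, limma adjusted p = 6.40e-06) on the log2 scale. Hk2 was at 2936, 3645 and 4388 in AML, 1156, 1892, 1635 and 1651 in whole marrow and 3486, 2207, 2291 and 2041 in lineage-negative marrow, so that AML lay above all whole marrow libraries and overlapped lineage-negative replicate 1. Its difference from whole marrow was 1.21 (SE 0.18, limma adjusted p = 2.72e-05) as deposited and 0.51 (adjusted p = 0.00768) with TMM scaling, under the size set for a call. The ratio of Hk2 to Hk1 was higher in AML than in whole marrow by 1.34 (adjusted p = 0.00699, exact permutation) and higher than in lineage-negative marrow by 1.99 (adjusted p = 0.00699, exact permutation). All 7 AML libraries exceeded every normal library in this ratio.

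Hk3, the hexokinase of myeloid cells, was the most abundant of the family per kb in all 3 groups, at 1671 normalized counts per kb in AML, 1271 in whole and 1292 in lineage-negative marrow. It passed the test in no comparison: its count was 6152 ± 2219 in AML, 4681 ± 1174 in whole marrow and 4757 ± 1458 in lineage-negative marrow, with differences of 0.36 and 0.34. The first of these was -0.34 with TMM scaling. As a share of the 3 hexokinases per kb, Hk2 came to 24.7% ± 5.39 in AML against 14.4% ± 0.830 in whole and 16.8% ± 1.48 in lineage-negative marrow. Hk1 came to 11.7% ± 1.26, 17.7% ± 1.79 and 32.3% ± 3.28 in the same order. The ratio of Hk3 to Hk2 dropped by 0.85 from whole marrow to AML (adjusted p = 0.0341, exact permutation), whereas against lineage-negative marrow it differed by -0.21 (adjusted p = 0.458, exact permutation), which did not pass. The ratio of Hk3 to Hk1 was higher in AML than in whole marrow by 0.49 (adjusted p = 0.0242, exact permutation) and than in lineage-negative marrow by 1.78 (adjusted p = 0.00699, exact permutation).

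Phosphofructokinase catalyses the committed step of glycolysis and works as a tetramer of liver (Pfkl), muscle (Pfkm) and platelet (Pfkp) subunits. AML marrow used the platelet subunit more and the muscle subunit less than either normal group, relative to the rest of the family. Pfkp was at 2382, 3010.1 and 4065 in AML, 526, 981, 1036 and 837 in whole marrow and 2235, 1929.7, 1855 and 1773 in lineage-negative marrow. The AML libraries were all above the other 8, with lineage-negative marrow in between. The difference from whole marrow was 1.89 (SE 0.20, limma adjusted p = 6.12e-07), and 1.19 (adjusted p = 8.20e-06) with TMM scaling. From lineage-negative marrow it was 0.64 (SE 0.20, limma adjusted p = 0.0112), under the size set for a call.

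Pfkm was at 159, 207 and 307 in AML, 149.9, 304, 304 and 375 in whole marrow and 1559.9, 1209, 989.9 and 1093 in lineage-negative marrow. The lineage-negative libraries stood far above all others, and AML and whole marrow overlapped. The difference between AML and lineage-negative marrow was -2.42 (SE 0.24, limma adjusted p = 8.73e-08). That of AML from whole marrow was -0.27 as deposited (limma adjusted p = 0.329) and -0.96 with TMM scaling (limma adjusted p = 3.32e-04), neither a call. With quantile scaling it was -1.05 (limma adjusted p = 1.45e-04), which was a call. Pfkl was at 1192, 1485 and 2059.5 in AML, 373, 703, 837 and 688 in whole marrow and 2860.1, 2810.4, 2263 and 2004 in lineage-negative marrow, with AML above whole marrow in every library. The rise over whole marrow, 1.24 (SE 0.21, limma adjusted p = 6.59e-05), came to 0.55 with TMM scaling and was then not called. In lineage-negative marrow Pfkl and Pfkm exceeded whole marrow by 1.98 and 2.15, and by 1.28 and 1.46 with TMM scaling, all of them calls.

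The ratio of Pfkp to Pfkm was higher in AML than in whole marrow by 2.16 and than in lineage-negative marrow by 3.06 (adjusted p = 0.00699 for each, exact permutation). Pfkp also gained on Pfkl, by 0.64 and 1.38 (adjusted p = 0.00699 for each, exact permutation). The ratio of Pfkm to Pfkl differed by -1.51 and -1.69, being lower in AML (adjusted p = 0.00699 for each, exact permutation), while the normal groups differed from each other by 0.17 (adjusted p = 0.349, exact permutation), which did not pass. Per kb, Pfkm made up 13.3% ± 3.53 of the 3 subunits in AML but 34.3% ± 4.25 in whole and 41.1% ± 2.84 in lineage-negative marrow. Pfkp made up 43.8% ± 3.39, 25.99% ± 2.45 and 16.6% ± 1.19 in that order, and Pfkl 43.0% ± 4.18, 39.7% ± 2.33 and 42.3% ± 2.81. The mean share of Pfkl thus stayed near the same level in the 3 groups, while Pfkp held more and Pfkm less of the family in AML. Like Pfkp, the monocyte and macrophage marker sum was above all 8 normal libraries in every AML library (72309.6 to 134190), as were Aldoc, Eno1 and Pfkfb3, and its part in these levels was not tested. The 6 megakaryocyte and platelet markers summed to 81.2 to 508 in AML, 596 to 1696 in whole and 2272 to 3395 in lineage-negative marrow.

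**Figure D3:**
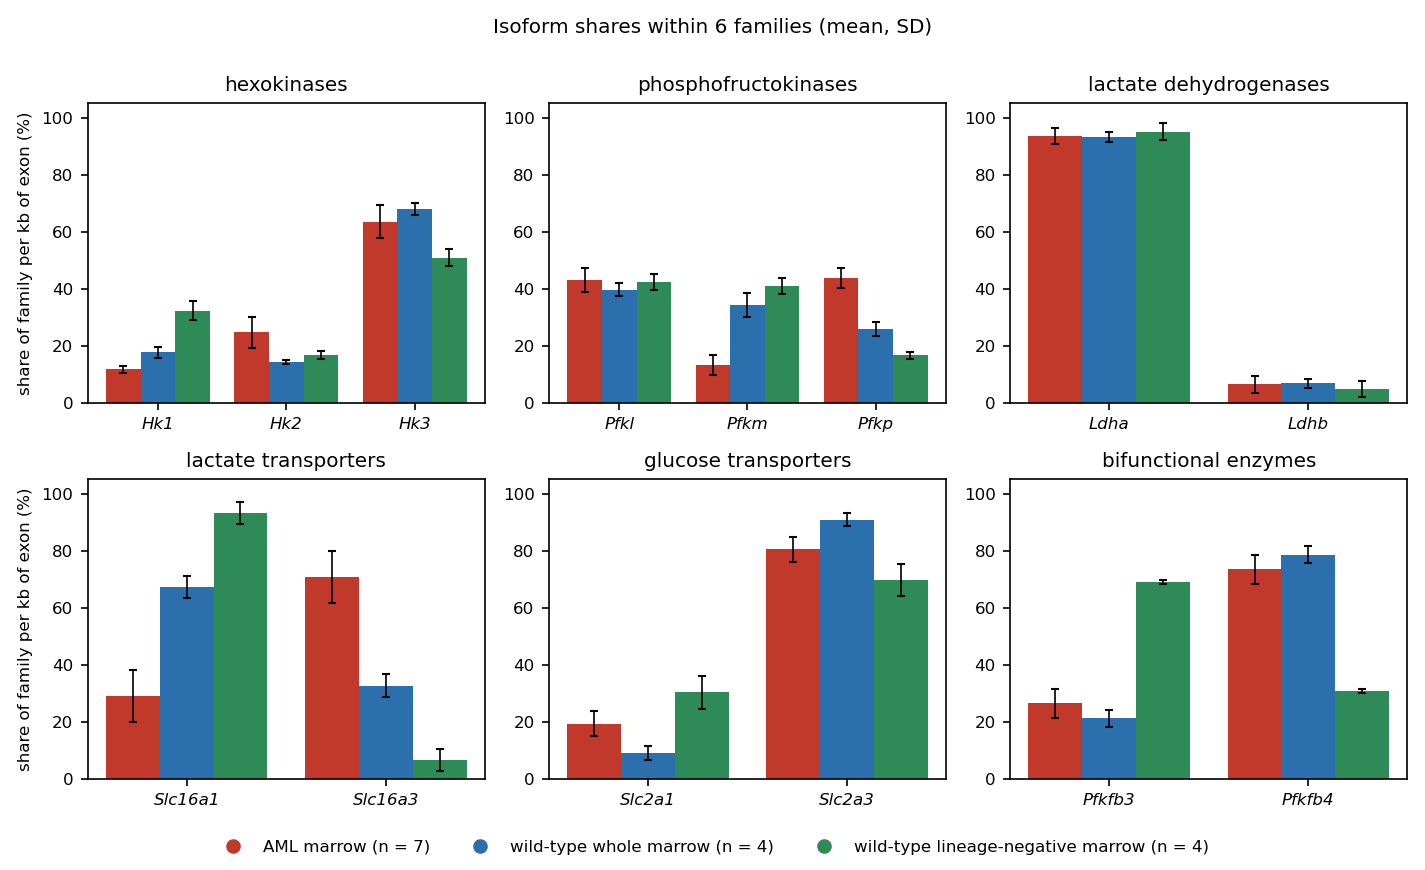
Share of each paralog in its family's normalized count per kb of exon, in percent (bars, group mean; error bars, SD over 7 AML, 4 whole marrow and 4 lineage-negative libraries). Pfkm holds 13.3% in AML against 34.3% and 41.1% in the normal groups, and Slc16a3 holds 70.9% against 32.7% and 6.67%, whereas Ldha holds over 90% in each group.

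Fructose 2,6-bisphosphate is the strongest activator of phosphofructokinase, and the bifunctional enzymes of the PFKFB family make and degrade it. Pfkfb4 had the largest difference between AML and lineage-negative marrow of the 33 rows. It was at 1755, 2467 and 4327 in AML, 319, 219, 216 and 216 in lineage-negative marrow and 1146, 2748, 2469 and 1929 in whole marrow. The lineage-negative values lay several-fold under both other groups, which overlapped. AML exceeded lineage-negative marrow by 3.40 (SE 0.25, limma adjusted p = 1.54e-09) and differed from whole marrow by 0.36 (SE 0.25, limma adjusted p = 0.209). Pfkfb3, the more widely expressed paralog, was at 1408 ± 251 in AML, 859 ± 263 in whole and 837 ± 144 in lineage-negative marrow. Its differences of 0.76 and 0.75 were under the size set for a call, although all 7 AML libraries were above all 8 normal ones. The ratio of Pfkfb4 to Pfkfb3 was higher in AML than in lineage-negative marrow by 2.65 (adjusted p = 0.00699, exact permutation). It differed from whole marrow by -0.40 (adjusted p = 0.113, exact permutation), which did not pass.

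Among the aldolases, which split fructose 1,6-bisphosphate, the minor brain-type Aldoc rose and the major Aldoa did not pass the test. Aldoc was at 76.5, 131 and 466 in AML, 25.1, 44.2, 36.5 and 36.8 in whole marrow and 24.5, 26.4, 32.6 and 43.7 in lineage-negative marrow. Every AML library was above all 8 normal libraries, and AML replicate 3 was the highest by a wide gap. The differences were 2.01 (SE 0.39, limma adjusted p = 2.64e-04) from whole and 2.18 (SE 0.39, limma adjusted p = 1.46e-04) from lineage-negative marrow. With voom on estimated reads, an alternative that weights low counts, the first was 1.34 with an adjusted p of 0.0539 and was not called. Aldoc remained a small part of aldolase, at 53.6 normalized counts per kb in AML against 10.9 and 9.75 in whole and lineage-negative marrow, while Aldoa held 4531, 2631 and 2858 per kb. Aldoa itself differed by 0.76 (SE 0.26, limma adjusted p = 0.0154) from whole and 0.60 (SE 0.26, limma adjusted p = 0.067) from lineage-negative marrow. The second row named Aldoa (ENSMUSG00000114515) held 1.23 to 19.1 normalized counts in AML, 0.898 to 4.09 in whole and 7.93 to 22.0 in lineage-negative marrow, near the floor of 3 reads. Its call between the normal groups, 2.03 (SE 0.66, limma adjusted p = 0.0116), was not made with TMM scaling (adjusted p = 0.0529).

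The other enzymes from glucose 6-phosphate to phosphoglycerate were not called between AML and lineage-negative marrow. Gpi1, which isomerizes glucose 6-phosphate, was at 13625 ± 4407 in AML, 8176 ± 1884 in whole and 9616 ± 2159 in lineage-negative marrow. Triosephosphate isomerase, Tpi1, was at 4521 ± 1363, 2195 ± 644 and 6443 ± 1087 in the same order, all AML libraries being above whole marrow. Gapdh, which oxidizes glyceraldehyde 3-phosphate, was at 4831 ± 1971, 2640.4 ± 409 and 3275 ± 1084. The rise of Tpi1 over whole marrow (1.05) came to 0.35 with TMM scaling. Pgk1, which makes the first ATP of the pathway, held 2798 ± 809, 1681 ± 679 and 1993 ± 665. The mutase Pgam1 held 6249 ± 1516, 2998 ± 931 and 5606 ± 669.8, and its rise over whole marrow (1.08) came to 0.39 with TMM scaling. Aldoa, Eno1, Gapdh, Ldha, Pgam1, Pgk1, Pkm and Tpi1 have near-identical processed copies in the mouse genome, so their counts are uncertain to the extent that the authors' counting split reads between copies. Gapdh and Pgk1 are commonly used as references in quantitative PCR, and here Gapdh differed among the AML libraries from 3111 to 8934.

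Enolase makes phosphoenolpyruvate, and 3 paralogs were measured. Eno1, the general form, was at 5201, 5952 and 9822 in AML, 1635, 3858, 3991 and 3062 in whole marrow and 4048, 3839, 2899 and 2601 in lineage-negative marrow. Every AML library was above all normal ones. The differences were 1.11 (SE 0.25, limma adjusted p = 7.49e-04) and 0.96 (SE 0.25, limma adjusted p = 0.00337), and the first came to 0.41 with TMM scaling. The second, under the size set for a call, was called at 1.00 to 1.06 without AML replicate 2, 3 or 4 or lineage-negative replicate 1 or 2. Eno3, the muscle form, was at 83.9, 131 and 969 in AML, 49.4, 76.4, 77.2 and 64.1 in whole marrow and 136, 145, 137 and 122 in lineage-negative marrow. One AML library, replicate 3, was far above the rest, and without it the difference from whole marrow went from 1.33 to 0.90 and was not called. With TMM scaling it was 0.64, also no call. Eno2, the neuronal form, ran from 1.27 to 71.6 in AML, 5.46 to 15.3 in whole and 0.881 to 13.1 in lineage-negative marrow, and was not called in any comparison. It was called above lineage-negative marrow without AML replicate 1 (1.68, adjusted p = 0.0479), and below whole marrow in lineage-negative marrow when these groups were fitted alone (-1.40, adjusted p = 0.0381). Beside such low counts, the mean over 1435 receptor genes that marrow should not express was 7.12 to 13.5 normalized counts in whole marrow, 0.388 to 0.503 in lineage-negative marrow and 0.469 to 3.78 in AML, where the highest was replicate 6, the library with the highest Eno2.

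Pyruvate kinase, Pkm, gave the highest signal per kb of all members in AML (6154 normalized counts per kb), ahead of Aldoa (4531) and Taldo1 (4376). Its counts were 20847, 26730.2 and 46045 in AML, 21803, 15550.4, 12415 and 10935 in lineage-negative marrow and 11477, 22777, 20371 and 15545 in whole marrow. The groups overlapped at the edges, lineage-negative replicate 1 being above the lowest AML library. The rise over lineage-negative marrow, 1.02 (SE 0.27, limma adjusted p = 0.00461), sat at the threshold and was not called without AML replicate 1 (0.94), AML replicate 6 (0.91), lineage-negative replicate 3 (0.94) or lineage-negative replicate 4 (0.88). With quantile scaling it was 0.69 (adjusted p = 0.0109), also no call. Counts per gene do not separate the M1 and M2 splice forms.

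At the branch between lactate and the mitochondrion, Ldha made up nearly all lactate dehydrogenase in each group. It was at 7186, 8294 and 12017 in AML, 2754, 5775, 5855 and 4471 in whole marrow and 10885, 12923, 10273 and 9336 in lineage-negative marrow, with whole marrow below every other library. The difference of AML from lineage-negative marrow was -0.28 (SE 0.23, limma adjusted p = 0.337) and that from whole marrow was 0.98 (SE 0.23, limma adjusted p = 0.00103), and neither was called. The second was called without AML replicate 3, 5 or 7 or whole marrow replicate 2 or 3 (1.02 to 1.10), and was 0.28 with TMM scaling. Between the normal groups Ldha differed by 1.25 (SE 0.25, limma adjusted p = 2.76e-04), and by 0.56 with TMM scaling, which was no call. Per kb Ldha held 93.5% ± 2.88 of the pair in AML, 93.2% ± 1.70 in whole and 95.1% ± 2.85 in lineage-negative marrow. Ldhb, whose subunit favours the return of lactate to pyruvate, was at 78.2 to 505 in AML, 117 to 221 in whole and 159 to 514 in lineage-negative marrow. The ratio of Ldhb to Ldha did not pass the exact permutation test in any comparison (differences of -0.27, 0.37 and -0.64, with adjusted p of 0.733, 0.564 and 0.231). Without AML replicate 6, which had the lowest Ldhb, the first of them was 0.086.

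Pdk1, the kinase that shuts pyruvate dehydrogenase and a standard target of the hypoxia-inducible factors, was highest in lineage-negative marrow. It was at 659, 804 and 1176 in AML, 1651, 2146, 1861 and 1963 in lineage-negative marrow and 371, 600.3, 650.1 and 445 in whole marrow. The groups did not overlap, AML lying between the normal groups. Relative to lineage-negative marrow Pdk1 fell by 1.14 (SE 0.19, limma adjusted p = 8.11e-05), and it was 0.78 above whole marrow as deposited and 0.080 with TMM scaling, which was no call. Between the normal groups it differed by 1.91 (SE 0.22, limma adjusted p = 8.23e-07), and by 1.22 with TMM scaling.

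Of the 10 pairs tested, the lactate transporters showed the largest shift in both comparisons of AML. Slc16a1 encodes MCT1, which carries lactate in either direction at low concentrations, and Slc16a3 encodes MCT4, the exporter of highly glycolytic cells. Their promoters are shown because both hold the core letters of the hypoxia response element, ACGTG, which is printed in capitals where it or its reverse complement CACGT occurs. Each sequence covers the 250 bases before the RefSeq start site in build GRCm38.p6, on the plus strand, chr3:104638414-104638663 for Slc16a1 and chr11:120948817-120949066 for Slc16a3.
Slc16a1: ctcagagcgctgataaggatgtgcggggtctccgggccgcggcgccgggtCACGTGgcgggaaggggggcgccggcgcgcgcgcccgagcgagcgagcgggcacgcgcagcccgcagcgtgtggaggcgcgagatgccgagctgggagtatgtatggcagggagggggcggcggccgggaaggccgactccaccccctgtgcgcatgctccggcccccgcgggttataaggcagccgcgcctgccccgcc
Slc16a3: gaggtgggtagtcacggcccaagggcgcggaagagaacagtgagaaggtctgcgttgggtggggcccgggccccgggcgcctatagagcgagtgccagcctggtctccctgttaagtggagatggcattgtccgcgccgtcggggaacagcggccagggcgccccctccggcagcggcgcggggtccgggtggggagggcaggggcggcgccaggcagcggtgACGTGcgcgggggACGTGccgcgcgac
In Slc16a1 the capitals form 1 CACGTG, the palindromic E-box read by factors such as Myc, so that 2 matches overlap in it. In Slc16a3 there are 2 separate ACGTG and no CACGTG. A match is a description of the letters and not a binding site.

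Slc16a1 was at 478, 878 and 1153 in AML, 1877, 3631, 4172 and 4531 in whole marrow and 3094, 4587, 3867 and 3776 in lineage-negative marrow. All 7 AML libraries were below all 8 normal libraries, and the normal groups overlapped. Slc16a1 fell by 2.17 (SE 0.27, limma adjusted p = 3.31e-06) against whole marrow and fell by 2.35 (SE 0.27, limma adjusted p = 6.34e-07) against lineage-negative marrow. With TMM scaling the differences were -2.87 and -2.34. It was the single member called lower than in whole marrow. Slc16a3 was at 1463, 1866 and 4379.8 in AML, 1016, 2747, 2132 and 2498 in whole marrow and 521, 215, 278 and 239 in lineage-negative marrow. AML overlapped whole marrow, and every lineage-negative library lay below both. The rise over lineage-negative marrow was 2.94 (SE 0.32, limma adjusted p = 4.34e-07). The difference from whole marrow was 0.20 (SE 0.32, limma adjusted p = 0.597), and -0.49 with TMM scaling.

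The ratio of Slc16a3 to Slc16a1 was higher in AML than in whole marrow by 2.38 and than in lineage-negative marrow by 5.29 (adjusted p = 0.00699 for each, exact permutation), higher in 7 of 7 AML libraries than in any normal library. Per kb, Slc16a3 made up 70.9% ± 9.06 of the pair in AML, 32.7% ± 3.98 in whole and 6.67% ± 3.83 in lineage-negative marrow. Red cells are known to carry MCT1, and the erythroid marker sum was far lower in AML than in whole marrow. In whole marrow that sum is mostly haemoglobin. Some single erythroid genes, chosen after their values were seen, moved with Slc16a1 (3831 in lineage-negative, 3553 in whole and 787 in AML marrow): Epor was at 662, 508 and 8.15, and Ermap at 4950.3, 3581 and 48.4, in that order. The erythroid gene Alas2 did not, at 227, 20975 and 171. Of the 12 erythroid markers, 7 were called lower and 0 higher in lineage-negative than in whole marrow with both scalings. In AML, 12 were called lower than in whole marrow and 6 lower than in lineage-negative marrow. The part of erythroid cells in the level of Slc16a1 was not tested. Late neutrophil markers, lowest in lineage-negative marrow, moved with Slc16a3, and their part in its level was not tested.

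The oxidative arm of the pentose phosphate pathway, which yields NADPH, was higher in AML than in lineage-negative marrow at both dehydrogenases. G6pdx, the rate-limiting glucose 6-phosphate dehydrogenase, was at 4554, 6525 and 12568 in AML, 2446, 2523, 1946 and 2256 in lineage-negative marrow and 2678, 5915, 6793 and 4536 in whole marrow. The lineage-negative values were below all AML and whole marrow libraries. The difference from lineage-negative marrow was 1.63 (SE 0.26, limma adjusted p = 4.28e-05) and that from whole marrow was 0.59 (SE 0.26, limma adjusted p = 0.0584), which turned to -0.11 with TMM scaling. Pgd, the second dehydrogenase, was at 5534, 7069 and 13235 in AML, 4944, 3086, 2454 and 2817 in lineage-negative marrow and 3609.8, 6531, 5906 and 5108 in whole marrow. AML lay above all lineage-negative libraries and overlapped whole marrow, and the differences were 1.24 (SE 0.25, limma adjusted p = 4.02e-04) and 0.55 (SE 0.25, limma adjusted p = 0.0601). Pgls, the lactonase between those enzymes, did not follow them: it was at 1788 ± 427 in AML and 1789.8 ± 365 in lineage-negative marrow, a difference of -0.012. Its rise over whole marrow, 1.11 (SE 0.20, limma adjusted p = 1.12e-04), was 0.42 with TMM scaling and then not called.

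The non-oxidative arm turns pentoses back into sugars of glycolysis. Rpia, which makes ribose 5-phosphate for nucleotides, was at 852, 1066 and 1401 in AML, 2506, 2345, 1987 and 2119 in lineage-negative marrow and 769, 1288, 1243 and 1102 in whole marrow. The lineage-negative libraries were above all others. Relative to lineage-negative marrow Rpia fell by 1.04 (SE 0.18, limma adjusted p = 1.17e-04), a value at the threshold that was not called without AML replicate 3 (-0.99), AML replicate 7 (-0.98) or lineage-negative replicate 1 (-0.98). Taldo1, transaldolase, was at 9501 ± 2108 in AML, 4952 ± 798 in lineage-negative and 7475 ± 2390 in whole marrow. All AML libraries were above the lineage-negative ones, by 0.93 (SE 0.22, limma adjusted p = 0.00193), just under the size set for a call. Tkt, transketolase, was at 19170.1 ± 3897, 16607 ± 2002 and 14979.5 ± 4049.6 in the same order and passed no test. Against whole marrow, G6pdx, Pgd, Rpia, Taldo1 and Tkt were all uncalled in AML, and their differences were below 0 with TMM scaling (-0.11, -0.15, -0.69, -0.31 and -0.32) but not with the deposited scaling. Between the normal groups G6pdx fell by 1.04 (SE 0.30, limma adjusted p = 0.00472) in lineage-negative marrow, a call lost without whole marrow replicate 2 (-0.93), whole marrow replicate 3 (-0.87) or lineage-negative replicate 3 (-0.97).

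Over the members as a set, the letters ACGTG or CACGT occurred in 15 of 45 promoters of 250 bases (33.3%), from 12 of the 31 member genes found in the RefSeq promoter table, against 16.6% of all 32851 promoters of the same length. Slc2a3 had no entry. CACGTG occurred in 8.89% of the members' promoters and 6.02% of all, and Ldha held the most ACGTG matches of a single promoter, 5, which include 2 palindromes. The members' promoters were also richer in G and C, with a median of 59.6% against 52.4%, and the part of base composition in the count was not tested. The genes with a match (Aldoa, Hk2, Hk3, Ldha, Pfkfb3, Pfkm, Pgam1, Pgk1, Pkm, Slc16a1, Slc16a3 and Slc2a1) include both transporters printed above and members that differed in opposite directions between AML and lineage-negative marrow, such as Pfkm and Slc16a3.

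Other genes of the pathway were read from lists drawn up beside the members. Of 21 tested enzymes of glycolysis and the pentose phosphate pathway outside the members, 2 were higher and 5 lower in AML than in lineage-negative marrow with both scalings, and 1 was higher and 3 lower than in whole marrow. For these lists the shares of all genes called with both scalings were 17.5% higher and 12.4% lower against lineage-negative marrow, and 4.74% and 11.3% against whole marrow (27.3% and 11.3% as deposited). Pklr, the liver and red cell pyruvate kinase, was at 7.23 ± 3.68 in AML, 284 ± 90.6 in whole and 1721 ± 179 in lineage-negative marrow, with differences of -5.33 and -7.99. Bpgm, which makes the 2,3-bisphosphoglycerate of red cells, was at 304 ± 92.8 in AML and 434 ± 170.1 in lineage-negative marrow against 10386 ± 2316 in whole marrow. The erythroid marker sum, in whole marrow mostly haemoglobin, was like Bpgm highest in whole marrow. The erythroid genes Car1 (10962 in lineage-negative, 2098 in whole and 46.7 in AML marrow), Epor (662, 508 and 8.15) and Ermap (4950.3, 3581 and 48.4), chosen after their values were seen, ranked as Pklr did. Other erythroid genes did not: Alas2 (227, 20975 and 171) and Car2 (11967, 16424 and 232) were highest in whole marrow. Of the 12 erythroid markers, 7 were called lower and 0 higher in lineage-negative than in whole marrow with both scalings. Pklr was called higher in that comparison, by 2.66. The part of red cell precursors in Pklr or Bpgm was not tested. Adpgk, an ADP-dependent glucokinase, was at 13606 ± 4433 in AML and 11611 ± 3150.1 in whole marrow but 1473 ± 83.3 in lineage-negative marrow, and the muscle mutase Pgam2 rose over lineage-negative marrow by 2.51 from a low level (10.3 against 63.7). Of 11 further sugar and lactate transporters, 2 were higher and 2 lower than in lineage-negative marrow with both scalings. Against whole marrow 5 were higher and 1 lower as deposited, and TMM scaling kept the lower call alone. Slc37a2, a sugar phosphate exchanger of macrophages, rose over lineage-negative marrow by 2.99 (SE 0.25, limma adjusted p = 1.09e-08). Slc2a4, the insulin-sensitive GLUT4, was at 274 ± 90.4 in whole marrow, 14.2 ± 7.87 in lineage-negative marrow and at or under the floor of 3 reads in 5 of 7 AML libraries.

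Of 13 genes for the entry of pyruvate into the mitochondrion, 1 was lower in AML than in lineage-negative marrow and the other 12 were not called. Against whole marrow 3 were higher and 1 lower as deposited, and TMM scaling kept the lower call alone. Pyruvate carboxylase, Pcx, was at 85.5 ± 25.5 in AML against 480.5 ± 141 in whole and 270.2 ± 70.0 in lineage-negative marrow. Among 20 regulators of glycolysis, 4 were higher and 3 lower than in lineage-negative marrow with both scalings. Against whole marrow 9 of the regulators were higher and 2 lower as deposited, of which TMM scaling kept the 2 lower calls. Beside these regulators and the 13 genes above, 17.5% of all genes were higher and 12.4% lower against lineage-negative marrow with both scalings. The shares against whole marrow were 27.3% and 11.3% as deposited, and 4.74% and 11.3% with both scalings. Myc, which drives many glycolytic genes, was at 719, 1157 and 1688 in AML, 9414, 6519, 4421 and 4909.8 in lineage-negative marrow and 383, 536, 605 and 621 in whole marrow. Against lineage-negative marrow it fell by 2.40 (SE 0.25, limma adjusted p = 1.91e-07), and its difference from whole marrow was 1.11 as deposited and 0.42 with TMM scaling. Hif1a, the oxygen-regulated subunit of hypoxia-inducible factor, was at 1376, 2548 and 2938 in AML, 928, 1521, 1260.3 and 1246 in lineage-negative marrow and 627, 1337, 1574 and 1392 in whole marrow. Its difference was 0.97 (SE 0.24, limma adjusted p = 0.003) from lineage-negative marrow, not a call, and 1.03 (SE 0.24, limma adjusted p = 0.00126) from whole marrow, which came to 0.34 with TMM scaling. Epas1, its paralog HIF-2 alpha, rose over lineage-negative marrow by 3.26 (SE 0.48, limma adjusted p = 1.37e-05), from 12.9 to 115.

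The AML libraries differed widely among themselves in these genes. Replicates 1 and 6 were each the highest AML library in 12 of the 33 rows and among the top 2 in 22 and 25 rows, a pattern chosen after the values were seen. The members held 0.800% and 0.930% of all normalized counts in these libraries, against 0.489% to 0.636% in the other 5. In whole marrow the share was 0.600% to 0.722% and in lineage-negative marrow 0.581% to 0.682%, so the AML libraries spanned the range of both and went beyond it. Slc2a3 reached 9241 and 7351 in replicates 1 and 6 and 2811 in the lowest library, and Slc16a3 reached 4379.8 and 3411 against 1463. Hk3 and Gpi1 were likewise highest there. The 12 late neutrophil markers summed to 1491860 and 1092590 in replicates 1 and 6 against 421256 to 780530 in the other 5 AML libraries, and the part of neutrophil content in these members was not tested. Hk2, Pfkm and Pfkp did not have both replicates 1 and 6 at the top. Hk2 was highest in replicate 1 (4388) but was 3096 in replicate 6, below the AML median of 3645, and Pfkp was highest in replicates 6 and 2. Replicate 3 was the lowest AML library in 13 rows but the highest in Aldoc, Eno3 and Pfkfb3. Replicates 5 and 6 had fewer genes at 0 (29.1% and 23.6%) than the other 5 AML libraries (38.2% to 41.4%). Without that pair, 8 members were called higher and 1 lower than in whole marrow, and 7 higher and 5 lower than in lineage-negative marrow. The shares of all genes called were not counted for this fit, so these counts have no background beside them.

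**Figure D4:**
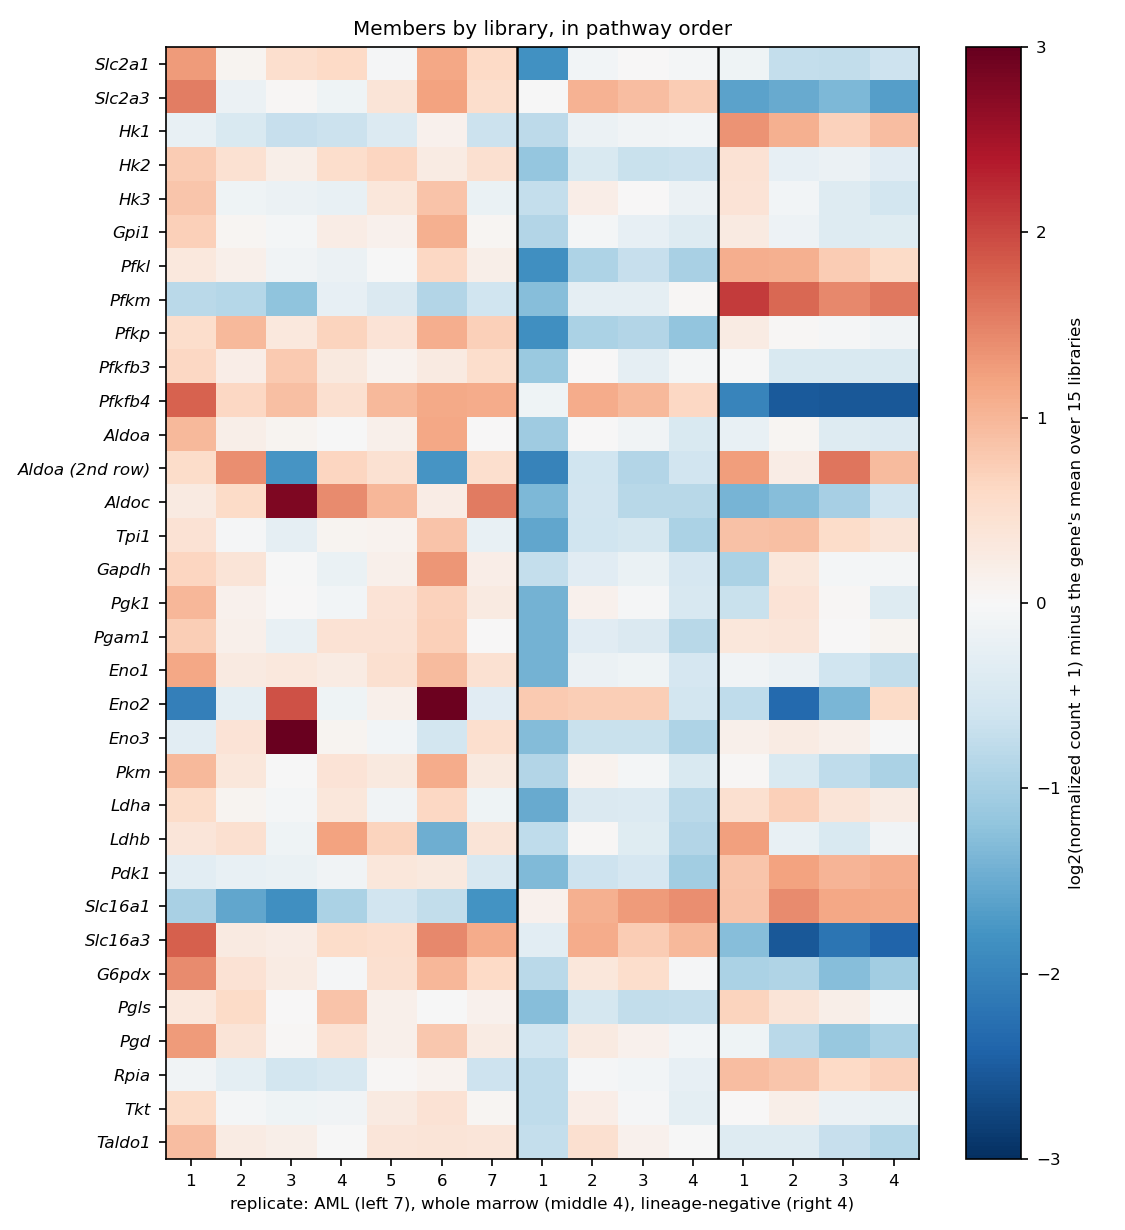
Each member (rows, in pathway order, 33 rows) in each of the 15 libraries (columns), coloured by log2(normalized count + 1) minus that row's mean over the libraries. AML replicates 1 and 6 are the highest AML columns in 12 rows each, and whole marrow replicate 1 is the lowest of its group in 31 rows. The row of Slc16a1 is low in AML alone, while that of Pfkm is low in both AML and whole marrow. Pfkfb4 and Slc16a3 are low in lineage-negative marrow. The deposited scaling sets whole marrow 0.67 below AML at the median gene.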

How the data were processed

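Total RNA was extracted with TRIzol and made into TruSeq Stranded Total RNA libraries, per the labels' protocols. The authors deposited 1 table of counts divided by size factors, a signal in data terms, for 15 libraries; the submitters' processing notes name STAR, Partek, DESeq2 and mm10, with no versions or roles, and whether the counting used strand is not given in the sources used here, so reads of overlapping and antisense genes cannot be separated. Most gene starts in the table differ from those of GRCm38 annotation (861 of 38066 matched IDs had the same start, 37557 the same length), so no gene coordinates are printed, and lengths per kb are unions of exons from GENCODE vM21. In each library 77.5% to 84.3% of low values were whole multiples of 1 step (tolerance 0.02 steps), so whole reads were not recovered and no count test was run; 3 reads, the floor, were worth 1.96 to 4.09 normalized counts. Floors cover counting error only.

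Genes with at least 10 normalized counts in at least 4 libraries were kept (18941 of 38315; all 33 member rows passed). Values were tested as log2(normalized count + 1) with limma 3.58.1 (R 4.3.3, trended empirical Bayes, 1 fit of 3 groups, two-sided), with Benjamini-Hochberg adjustment over all genes kept; differences of low genes are understated on this scale. TMM factors were computed from estimated reads over the kept genes. Log2 ratios of paralogs within a library were tested by exact permutation of libraries (NumPy 2.4.6), adjusted over 30 tests. The smallest raw p of this permutation test is 0.00303 with 7 against 4 libraries and 0.0286 with 4 against 4. Scripts were tested on simulated data. Alternatives were other pseudocounts, filters and scalings, voom, a fit of 2 groups alone, a replicate block and each library left out; a fit without AML replicates 5 and 6 was added after the data were seen.

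The text names all 32 members. From the other pathway lists it names from the 8 genes with the largest differences per comparison among those called with both scalings whose groups do not overlap, and Pklr, Bpgm, Hif1a and Myc. The members and lists were chosen with earlier results of these data known.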

Additional observations from a re-analysis of the deposited data

Results flagged for a closer look

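Of 129 sets of values tested (each member row and each ratio of paralogs in each group), 13 had 1 library set apart from the others of its group by Dixon's gap test; chance gives about 1 in 20. In AML marrow, replicate 3 was the highest for Aldoc, at 466 normalized counts against 195 in the next library, and for Eno3, at 969 against 175. AML replicate 1 was the highest for Taldo1, at 13921 against 9569, and for Pfkfb4, at 4327 against 2788. AML replicate 6 was the highest for Gapdh, at 8934 against 5524, and it had the lowest log2 ratio of Hk2 to Hk1 in its group, -0.24 against 0.52, and of Ldhb to Ldha, -7.25 against -5.35.

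In lineage-negative marrow, replicate 1 was the highest for Ldhb, at 514 against 203, for Slc2a1, at 307 against 217, for Pfkfb3, at 1052 against 766, and for Pfkfb4, at 319 against 219. This library also had the highest late neutrophil marker sum of its group, 19450 against 2196 to 9859 in the other 3; the part of those cells in its values was not tested. In whole marrow, replicate 1 was the lowest for Slc2a1, at 94.2 against 319, and replicate 4 was the lowest for Eno2, at 5.46 against 14.6.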

How the results depend on the processing

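The scaling decided most calls against whole marrow. Shares of all genes called were counted for the deposited and TMM scalings only, so the other counts of members below have no background beside them. Members called higher in AML than in whole marrow numbered 10 as deposited, 2 with TMM scaling, 3 with quantile scaling, 1 with voom and 3 to 11 with 1 library left out (3 without whole marrow replicate 1); the lower call numbered 1, and 2 with quantile scaling. Members called higher in lineage-negative than in whole marrow numbered 10, then 3, 5 and 3 with TMM scaling, quantile scaling and voom, and 8 to 11 with 1 library left out. Counts against lineage-negative marrow stayed within 1.5 times of 8 and 5 under all alternatives run. Members that changed sign were uncalled as deposited. Their log2 differences were as follows. With TMM scaling, those of AML from whole marrow were Tkt -0.32, Slc16a3 -0.49, Taldo1 -0.31, Pfkfb4 -0.34, Hk3 -0.34, Pgd -0.15, G6pdx -0.11, Rpia -0.69. With TMM scaling, those of lineage-negative from whole marrow were Hk2 -0.045, Tkt -0.51, Hk3 -0.68, Pfkfb3 -0.69, Ldhb -0.079, Aldoa -0.53, Slc16a1 -0.52, Gpi1 -0.46, Gapdh -0.44, Pgk1 -0.40, Eno1 -0.55. With quantile scaling, those of AML from whole marrow were Eno2 0.64, Tkt -0.33, Slc16a3 -0.54, Taldo1 -0.40, Pfkfb4 -0.39, Hk3 -0.40, Pgd -0.23, Ldhb -0.050, Aldoa -0.032, G6pdx -0.18, Gpi1 -0.081, Rpia -0.74. With quantile scaling, those of AML from lineage-negative marrow were Pgam1 -0.067, Tkt -0.12. With quantile scaling, those of lineage-negative from whole marrow were Tkt -0.20, Hk3 -0.55, Pfkfb3 -0.71, Ldhb -0.095, Aldoa -0.37, Slc16a1 -0.41, Gpi1 -0.26, Gapdh -0.31, Pgk1 -0.31, Eno1 -0.43. With voom, those of AML from whole marrow were Tkt -0.32, Slc16a3 -0.49, Taldo1 -0.31, Pfkfb4 -0.34, Hk3 -0.34, Pgd -0.15, G6pdx -0.11, Rpia -0.69. With voom, those of lineage-negative from whole marrow were Hk2 -0.044, Tkt -0.51, Hk3 -0.68, Pfkfb3 -0.69, Ldhb -0.095, Aldoa -0.53, Slc16a1 -0.53, Gpi1 -0.45, Gapdh -0.44, Pgk1 -0.40, Eno1 -0.54. With a pseudocount of 5, Eno2 in AML against whole marrow was 0.032. Without AML replicates 5 and 6, Rpia against whole marrow was -0.13, Pgls against lineage-negative marrow was 0.077 and the ratio of Ldhb to Ldha against whole marrow was 0.00814. Same-numbered samples of different groups did not deviate together (correlations of -0.29 to 0.17), so the numbers were not taken as pairs. With a replicate block, the counts were 10 higher and 1 lower for AML against whole marrow, 7 and 5 against lineage-negative marrow, and 10 and 4 between the normal groups; Rpia against whole marrow was -0.080, Pgls against lineage-negative marrow 0.14, Pkm (0.96) and Tpi1 (0.96) were not called, and Ldha against whole marrow (1.02) was. With 1 library left out in turn, the following uncalled differences changed sign. For AML against whole marrow the ranges were Eno2 -0.55 to 0.28, Slc16a3 -0.11 to 0.36, Rpia -0.16 to 0.090. For AML against lineage-negative marrow the ranges were Ldhb -0.092 to 0.47, Pgls -0.11 to 0.11, Eno3 -0.12 to 0.46. For lineage-negative against whole marrow the ranges were Hk3 -0.17 to 0.15, Pfkfb3 -0.24 to 0.14, Slc2a1 -0.52 to 0.089, Aldoa -0.057 to 0.30, Slc16a1 -0.11 to 0.31, Pgk1 -0.026 to 0.49, Eno1 -0.14 to 0.29. The ratio of Ldhb to Ldha ranged from -0.41 to 0.086 for AML against whole marrow, turning without AML replicate 6 (the cause was not tested), and from -1.01 to -0.44 between the normal groups, where it passed without lineage-negative replicate 1 (adjusted p = 0.0373, exact permutation). The ratio of Pfkp to Pfkm between the normal groups ranged from -1.05 to -0.84 and did not pass without any 1 of the lineage-negative libraries (adjusted p of 0.0686 to 0.0714, exact permutation). The other ratios kept their direction and their side of the threshold under the alternatives run. Depth limits Eno2 and the second row of Aldoa, whose lowest values lie at or under the floor; against whole marrow that row (1.02, uncalled) was called with quantile scaling (2.32) and without AML replicate 3 (1.32) or 6 (1.31).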

Other observations

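Values are mean ± SD over 7 AML or 4 normal libraries. Genes that supply or spend NADPH beside the pentose phosphate pathway were mixed in direction. For the lists here, the shares of all genes called with both scalings were 17.5% higher and 12.4% lower in AML than in lineage-negative marrow, and 4.74% and 11.3% than in whole marrow. Of 11 tested, 3 were higher and 5 lower in AML than in lineage-negative marrow with both scalings, and 4 were lower than in whole marrow; the 2 called higher than in whole marrow as deposited were not called with TMM scaling. Nqo1, an NADPH-dependent quinone reductase, was at 38.1 ± 29.5 in AML against 191 ± 67.0 in whole and 192 ± 51.2 in lineage-negative marrow, with log2 differences of -2.62 (SE 0.51, limma adjusted p = 2.51e-04) and -2.67 (SE 0.51, limma adjusted p = 2.59e-04). Gclm, a subunit of the enzyme that starts glutathione synthesis, was at 632 ± 292, 2205 ± 782 and 2012 ± 310.3 in the same order, and relative to whole marrow it fell by 1.84 (SE 0.30, limma adjusted p = 4.37e-05). Mthfd1, a folate enzyme that can make NADPH, fell by 2.83 (SE 0.20, limma adjusted p = 1.15e-09) relative to lineage-negative marrow, from 5599 to 800.2, while whole marrow was at 825. Slc7a11, which imports cystine for glutathione, fell by 3.63 (SE 0.34, limma adjusted p = 9.81e-08) in lineage-negative relative to whole marrow.

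Among 15 tested hypoxia-response genes outside the members, 3 were higher and 2 lower in AML than in lineage-negative marrow with both scalings, and 3 were higher and 1 lower than in whole marrow. Ankrd37 was at 97.2 ± 46.6 in AML, 20.2 ± 11.8 in whole and 16.4 ± 7.37 in lineage-negative marrow, a rise of 2.29 (SE 0.43, limma adjusted p = 1.81e-04) over whole marrow. Bhlhe40, a transcriptional repressor, rose over lineage-negative marrow by 3.01 (SE 0.35, limma adjusted p = 8.66e-07), from 131 to 1116. P4ha2, a collagen prolyl hydroxylase, was at or under the floor of 3 reads in 5 of 7 AML libraries and at 28.7 ± 3.58 in whole marrow, where the receptor genes that marrow should not express were also at their highest. Mycn and Mlxipl belong to the regulators of glycolysis and not to the hypoxia-response list. Mycn was higher in lineage-negative than in whole marrow by 2.73 (SE 0.43, limma adjusted p = 2.10e-05). Mlxipl, the carbohydrate response factor ChREBP, was at 14.6 ± 4.35 in whole marrow, with all 4 lineage-negative libraries at or under the floor. That whole marrow level is near the mean of the receptor genes that marrow should not express, 7.12 to 13.5 in those libraries.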
